A study of Rattus norvegicus with 3 samples.

Results

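The genes encoding the subunits of the proteasome were compared in 2 rat sarcoma cell lines and in bone marrow mesenchymal stem cells (MSCs). The genes were chosen by name: every gene with a probe on the array whose rat symbol was Psma, Psmb, Psmc, Psmd or Psme followed by a number, without the inducible catalytic subunits Psmb8, Psmb9 and Psmb10. This rule found 38 of the 13351 genes that could be named on the array, and 37 of them were among the 10010 genes used, whose brightest probe the scanner software called well above background somewhere. All 37 were well above background on all 3 arrays. The remaining gene, Psma8, which encodes an alpha subunit known from the testis, was not well above background on any array, with intensities of 12.47 in COS1NR, 6.038 in MFH1NR and 3.582 in MSCs. Psmd11 and Psmb11 had no named probe and were not analysed here.

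COS1NR is an osteosarcoma line and MFH1NR is a malignant fibrous histiocytoma (MFH) line, both established from tumors that the chemical 4-HAQO had induced in F344 rats. Both lines carry a p53 mutation according to the study's methods. Each line stands for a single tumor. The MSCs were grown from the femur bone marrow of F344 rats by adherence to plastic and were not sorted by surface markers. RNA of each of the 3 cell types was labeled with Cy3 and hybridized to 1 whole rat genome array, so no difference could be tested and every value below describes these 3 arrays.

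The proteasome degrades proteins that carry chains of ubiquitin. Its core particle is a barrel of alpha rings, which gate the entrance, and beta rings, which hold the catalytic sites. The regulatory particle caps the barrel, binds and unfolds the substrate with a ring of ATPases, and removes ubiquitin in its lid. Other activators, encoded by the Psme genes, can replace this cap.

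Levels are given as the log2 intensity relative to the 75th percentile of the same array, which was 773.7 in COS1NR, 994.3 in MFH1NR and 589.1 in MSCs. A difference of 1 on this scale is a 2-fold ratio. Levels of different genes come from different probes and were not set against each other. Another scaling moves the ratios of all genes together: the medians over all genes of COS1NR over MSCs, MFH1NR over MSCs and MFH1NR over COS1NR moved by 0.40, 0.76 and 0.36 in log2 without scaling and by -0.27, 0.52 and 0.79 with scaling to spike-in probes. Values and calls below are those at the 75th percentile unless another scaling is named. Repeated spots within an array give a spread of 0.075 for a log2 ratio between single spots, and this spread covers neither separate cultures nor separate labelings. On the MSC array, all 15 macrophage markers examined (among them Lyz2, Csf1r and C1qa) were well above background, against 8 in COS1NR and 7 in MFH1NR. Their summed intensity relative to the 75th percentile was 9.71 in COS1NR, 4.84 in MFH1NR and 178 in MSCs, with Lyz2, C1qa, Adgre1, Cd163, Mrc1, Ptprc and Itgam not well above background in either sarcoma. The 7 MSC and fibroblast markers were all well above background in MSCs, where their sum was 900, against 119 in COS1NR and 241 in MFH1NR. In COS1NR most of this sum came from 1 Col1a1 probe with a log2 ratio of -0.33 to MSCs, and the second Col1a1 probe gave -3.69. In MFH1NR the Col1a1 and Col1a2 probes in the sum had log2 ratios of -0.38 and -0.98, and their second probes gave -3.35 and -4.56. The median over the 5 osteoblast markers was -1.89 for COS1NR over MSCs and -0.84 for MFH1NR over MSCs (log2 ratios), and their sums of 30.8 in COS1NR, 153 in MFH1NR and 75.5 in MSCs came mostly from Spp1. The markers of T cells, B cells, erythroid cells and endothelial cells each summed to at most 1.18 on any array. The part of these other cells in the comparisons with MSCs was not tested. The MSC array lay on another slide than the 2 sarcoma arrays. According to the study's methods, the MSCs were also grown with more fetal bovine serum than the sarcoma lines. In those comparisons the cell type, the slide and the serum therefore cannot be told apart.

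The proteasome genes were slightly higher in the sarcomas than in MSCs. The median log2 ratio over the 37 genes was 0.55 in COS1NR over MSCs and 0.24 in MFH1NR over MSCs, where the medians over all 10010 genes were 0.11 and 0.01. Both medians stayed above 0 under each of the scalings tried, while the larger one was that of COS1NR at the 75th percentile, median and quantile scalings and that of MFH1NR without scaling (0.94 and 0.99) and with scaling to spike-in probes (0.27 and 0.76). In COS1NR, 30 of the 37 genes were higher than in MSCs, beside 53.9% of all genes. In MFH1NR, 27 of 37 were higher, beside 50.4% of all genes. The excess was smaller against the 7932 genes that, like the 37, were well above background on each array. Their medians were 0.19 in COS1NR and 0.08 in MFH1NR, and 57.5% and 53.3% of them were higher than in MSCs. Above these medians lay 24 and 21 of the 37, against 29 and 25 above the medians of all genes. The 2 comparisons share the MSC array and are therefore not independent.

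At the 75th percentile scaling, most of these ratios were small. At least 2-fold higher in COS1NR than in MSCs were 3 genes, Psma5, Psmb4 and Psme3, beside 21.7% of all genes (17 genes, beside 32.9%, without scaling), and Psme4 was at least 2-fold lower, beside 22.3% of all genes. In MFH1NR, Psmd6 exceeded MSCs by at least 2-fold, beside 20.8% of all genes (18 genes without scaling, beside 41.6%, and 11 with spike-in scaling, beside 34.2%), and none of the 37 was at least 2-fold lower, beside 23.2% of all genes. No proteasome gene was at least 2-fold from MSCs in both sarcomas, beside 30.1% of all genes. This count became 1 with median scaling (Psmd6, beside 31.8%) and with normexp background correction (Psmd6, beside 20.8%), 1 with spike-in scaling (Psme3, beside 28.9%) and 8 without scaling (21.6%, beside 38.6%). Within 2-fold of MSCs in both sarcomas were 32 of 37 genes (86.5%), beside 42.1% of all genes and 51.3% of the 7932 genes that were well above background on each array. Within 2-fold in every comparison among the 3 arrays were 30 of 37 (81.1%), beside 39.0% of all genes and 47.8% of those 7932 genes. Without scaling, 10 of 37 lay within 2-fold of MSCs in both sarcomas (27.0%, beside 31.1% of all genes), and with spike-in scaling 24 of 37 did (64.9%, beside 34.7%). The interquartile range of the log2 ratios was 0.65 in COS1NR over MSCs and 0.63 in MFH1NR over MSCs, against 1.38 and 1.40 over the 7932 genes. In MFH1NR over COS1NR the ranges were closer, 0.71 against 0.99. By this range, which a scaling factor does not change, the proteasome genes lay in a narrower band than the 7932 genes. Every proteasome gene lay above the 75th percentile of each array (lowest level 0.75, Psmd10 in MFH1NR), and the 7932 genes were not matched for intensity.

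**Figure D1:**
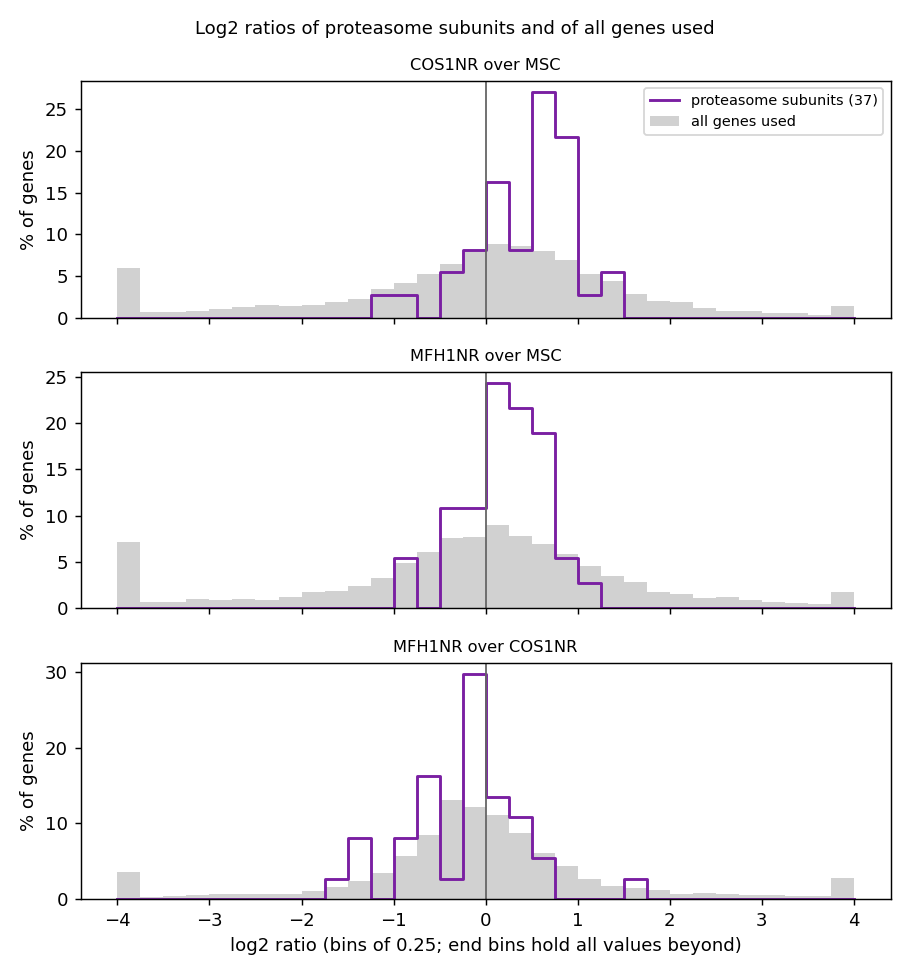
Histograms of the log2 ratios of the 37 proteasome genes (outline) and of all 10010 genes used (grey), as percent of genes in bins of 0.25, with 1 panel for each comparison. The proteasome genes lie between -1.18 and 1.31 in COS1NR over MSCs, between -0.84 and 1.12 in MFH1NR over MSCs and between -1.51 and 1.57 in MFH1NR over COS1NR. The end bins of the grey bars hold all values beyond the axis. A range widens with the number of genes, so the extents of outline and bars are not comparable.

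Between the sarcomas, 24 of the 37 genes had their highest level in COS1NR (64.9%, beside 35.1% of all genes), 10 in MFH1NR (27.0%, beside 29.3%) and 3 in MSCs (8.11%, beside 35.6%). The count for COS1NR was 15 with quantile normalization (40.5%, beside 32.8%), 14 without scaling (37.8%, beside 27.9%) and 7 with spike-in scaling (18.9%, beside 12.1%). That for MFH1NR was 19 (51.4%, beside 32.5%), 22 (59.5%, beside 51.3%) and 29 (78.4%, beside 58.6%) in the same order. Only 1 gene was highest in MSCs without scaling (beside 20.9%) and with spike-in scaling (beside 29.3%). The median log2 ratio of MFH1NR over COS1NR was -0.09, beside -0.11 over all genes, and it was above 0 without scaling, with quantile normalization and with scaling to spike-in probes. Of the 37, 11 were higher in MFH1NR than in COS1NR, beside 44.4% of all genes. This number became 23 without scaling (beside 63.4%), 22 with quantile normalization (beside 49.4%) and 30 with spike-in scaling (beside 79.4%). At the 75th percentile scaling, 8 of the 37 lay within the spread of 0.075 between single spots in this comparison. Among them were Psmb2 and Psmc5, which are counted as highest in COS1NR. Psme4 was at least 2-fold higher in MFH1NR, beside 13.9% of all genes, and 4 genes were at least 2-fold lower, Psma5, Psmb4, Psmd4 and Psmd10, beside 16.0% of all genes. With spike-in scaling all 4 fell within 2-fold, with log2 ratios of -0.72, -0.53, -0.63 and -0.48, and without scaling Psmb4 and Psmd10 did, with -0.96 and -0.91. Spike-in scaling thus left no gene at least 2-fold lower in MFH1NR (beside 8.39% of all genes) and put 7 at least 2-fold higher (beside 35.0%), namely Psma2, Psmb1, Psmc4, Psmc6, Psme1, Psme2 and Psme4.

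Among the alpha ring, the beta ring, the ATPases, the Psmd genes and the activators, only the alpha ring had every gene higher in COS1NR than in MSCs at the 75th percentile scaling. A smaller set within the Psmd genes, Psmd1, Psmd2 and Psmd4, was also higher throughout and narrower, with log2 ratios from 0.65 to 0.78. All 7 alpha genes were higher in COS1NR than in MSCs under each of the scalings tried. Of all genes 53.9% were higher there, from 44.2% with spike-in scaling to 65.9% without scaling. The alpha genes had a median log2 ratio of 0.76 and a range from 0.45 for Psma4 to 1.26 for Psma5. In MFH1NR, 5 of 7 were higher than in MSCs (beside 50.4% of all genes), with a median of 0.38. There too all 7 were higher without scaling (beside 72.0%), with quantile normalization (beside 52.5%) and with spike-in scaling (beside 66.1%). Psma5 had a level of 6.80 in COS1NR, 5.29 in MFH1NR and 5.53 in MSCs. It was 2.40-fold higher in COS1NR than in MSCs and 2.84-fold lower in MFH1NR than in COS1NR, whereas MFH1NR and MSCs lay within 1.18-fold of each other. Psma2 had a level of 4.24 in COS1NR, 4.50 in MFH1NR and 3.74 in MSCs, and was at this scaling the only alpha gene with its highest level in MFH1NR. Psma4 differed less, with 6.24 in COS1NR, 6.18 in MFH1NR and 5.79 in MSCs. The other alpha genes, Psma1, Psma3, Psma6 and Psma7, had log2 ratios between 0.70 and 0.99 in COS1NR over MSCs and between -0.08 and 0.59 in MFH1NR over MSCs.

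The beta ring was less uniform, and its catalytic genes were within 2-fold of MSCs, except without scaling, where Psmb7 in COS1NR and Psmb6 in MFH1NR had log2 ratios of 1.05 and 1.06. The median log2 ratio of the 7 beta genes was 0.14 in COS1NR over MSCs, which became -0.14 with spike-in scaling, and 0.10 in MFH1NR over MSCs. Psmb5, the chymotrypsin-like catalytic subunit, had a level of 4.72 in MSCs and 4.46 in both COS1NR and MFH1NR. It was 1 of 3 proteasome genes with their highest level in MSCs, together with Psmd8 and Psmd9, but its log2 ratios to MSCs were 0.13 and 0.50 without scaling, where only Psmd8 remained highest in MSCs. Psmb6, the caspase-like subunit, had a level of 3.65 in COS1NR, 3.82 in MFH1NR and 3.52 in MSCs. Psmb7, the trypsin-like subunit, had a level of 4.78 in COS1NR, 4.13 in MFH1NR and 4.12 in MSCs, so that COS1NR was 1.58-fold above MSCs and MFH1NR was level with them. In COS1NR, Psmb5 thus lay below MSCs and Psmb6 and Psmb7 above them, whereas without scaling all 3 lay above. Psmb6 was near MSCs and turned to -0.14 with spike-in scaling and -0.03 with normexp.

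Among the beta genes without a catalytic site, Psmb4 stood apart. Its level was 6.56 in COS1NR, 5.24 in MFH1NR and 5.41 in MSCs. It was 2.21-fold higher in COS1NR than in MSCs and 2.50-fold lower in MFH1NR than in COS1NR, the same ranking of the arrays as Psma5. Psmb3 had a level of 5.93 in COS1NR, 5.56 in MFH1NR and 5.06 in MSCs, and its probe may also bind transcripts of some of the 10 like loci that the annotation lists for it. Psmb1 had a level of 4.04 in COS1NR, 4.39 in MFH1NR and 4.15 in MSCs. Psmb2 differed by at most 0.12 in any comparison, with log2 ratios to MSCs of 0.52 and 0.86 without scaling.

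**Figure D2:**
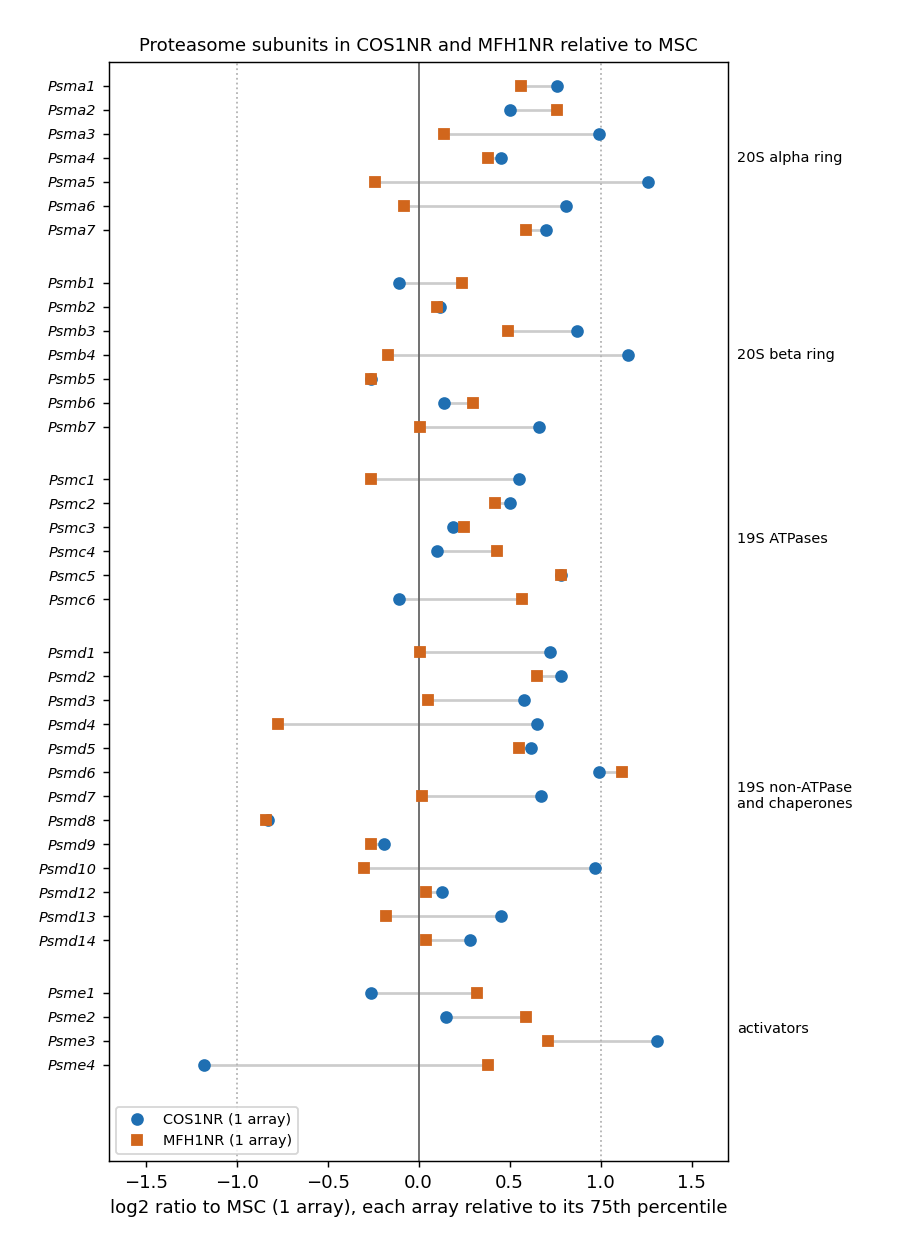
Log2 ratio to MSCs of each proteasome gene, in COS1NR (circles) and MFH1NR (squares), grouped by subcomplex, with 1 array per cell type and dotted lines at 2-fold. The circles of the alpha ring all lie to the right of 0, and the longest grey bars between circle and square belong to Psme4, Psma5, Psmd4, Psmb4 and Psmd10.

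The 6 ATPases of the regulatory particle, which unfold substrates, all stayed within 2-fold in every comparison at the 75th percentile and median scalings. Without scaling 5 of 6 were past 2-fold in some comparison (beside 71.5% of all genes), with spike-in scaling 3 (beside 71.2%) and with quantile normalization 1 (beside 61.0%). Their median log2 ratio was 0.34 in COS1NR over MSCs and 0.42 in MFH1NR over MSCs, above 0 in both under each of the scalings tried. Psmc5 had intensities before scaling of 85150 in COS1NR, 109100 in MFH1NR and 37760 in MSCs. After scaling its level was 6.78 in both sarcomas, 1.72-fold and 1.71-fold above MSCs. Psmc6 had a level of 4.34 in COS1NR, 5.01 in MFH1NR and 4.44 in MSCs and the highest log2 ratio of MFH1NR over COS1NR among the ATPases, 0.68. Psmc1 had a level of 5.97 in COS1NR, 5.16 in MFH1NR and 5.42 in MSCs, in the opposite order. Psmc2, Psmc3 and Psmc4 lay between 0.10 and 0.50 in both log2 ratios to MSCs.

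The 13 Psmd genes encode the non-ATPase subunits of the regulatory particle and some chaperones that help to assemble it. In COS1NR, 11 of 13 were higher than in MSCs (beside 53.9% of all genes), with a median log2 ratio of 0.62. In MFH1NR 8 of 13 were higher (beside 50.4%), with a median of 0.02. Of these 8, Psmd1, Psmd3, Psmd7, Psmd12 and Psmd14 had log2 ratios of at most 0.05, within the spread of 0.075 between single spots. In this comparison 6 of the 37 genes lay within that spread, these and Psmb7. That spread does not cover differences between probes: a second Psmd1 probe gave 0.25 here, and 2 further Psmd7 probes gave 0.73 and 0.72. Without scaling Psmd9, Psmd10 and Psmd13 also lay above MSCs in MFH1NR, with 0.50, 0.45 and 0.58. In MFH1NR over COS1NR, 12 of 13 were lower (beside 55.6% of all genes). Of these 12, Psmd5, Psmd8 and Psmd9 lay within the spread between single spots, with -0.07, -0.01 and -0.07. The count of 12 fell to 7 with quantile normalization (beside 50.6%), 6 without scaling (beside 36.6%) and 2 with spike-in scaling (beside 20.6%). Psmd6, a lid subunit, had a level of 2.58 in COS1NR, 2.71 in MFH1NR and 1.59 in MSCs and was 2.17-fold above MSCs in MFH1NR and 1.98-fold in COS1NR. Psmd8, another lid subunit, had a level of 3.21 in COS1NR, 3.20 in MFH1NR and 4.04 in MSCs, which made it 1.78-fold lower in COS1NR and 1.79-fold lower in MFH1NR than in MSCs. These lid genes thus showed opposite patterns.

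The Psmd genes that differed most between the sarcomas were Psmd4 and Psmd10. Psmd4, a receptor for ubiquitin chains in the regulatory particle, had a level of 5.40 in COS1NR, 3.97 in MFH1NR and 4.75 in MSCs. It was 2.69-fold lower in MFH1NR than in COS1NR, above MSCs in COS1NR and 1.71-fold below them in MFH1NR. The last of these log2 ratios, -0.77, became -0.02 without scaling and -0.25 with spike-in scaling. Psmd10, known as gankyrin, is a chaperone of the ATPase ring and had a level of 2.03 in COS1NR, 0.75 in MFH1NR and 1.06 in MSCs. It was 2.42-fold lower in MFH1NR than in COS1NR, and the other chaperones, Psmd5 and Psmd9, both had a log2 ratio of -0.07 in that comparison. The log2 ratio of Psmd9 to MSCs was -0.19 in COS1NR and -0.26 in MFH1NR. The remaining 8 Psmd genes (Psmd1, Psmd2, Psmd3, Psmd5, Psmd7, Psmd12, Psmd13 and Psmd14) had log2 ratios between 0.13 and 0.78 in COS1NR over MSCs and between -0.18 and 0.65 in MFH1NR over MSCs.

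The 4 activator genes went in different directions in COS1NR, with a median log2 ratio of -0.06 over MSCs whose sign changed with the scaling. All 4 were higher in MFH1NR than in MSCs, under each of the scalings tried, with a median of 0.49. Of all genes 50.4% were higher there, 72.0% without scaling and 66.1% with spike-in scaling. Psme3, an activator of the nucleus, had the highest ratio of the 37 genes in COS1NR over MSCs (Psma5 with quantile normalization and with normexp), with a level of 4.76 in COS1NR, 4.17 in MFH1NR and 3.45 in MSCs. It was 2.48-fold above MSCs in COS1NR and 1.64-fold in MFH1NR. Psme4, which encodes the large activator PA200, was the only activator lower in COS1NR by at least 2-fold. Its level was 1.40 in COS1NR, 2.97 in MFH1NR and 2.59 in MSCs, so that it was 2.27-fold lower in COS1NR than in MSCs (a log2 ratio of -0.79 without scaling) and 2.96-fold higher in MFH1NR than in COS1NR. A second Psme4 probe, of lower intensity, gave log2 ratios of -0.91, 0.62 and 1.53 in COS1NR over MSCs, MFH1NR over MSCs and MFH1NR over COS1NR, against -1.18, 0.38 and 1.57 for the brighter one. Psme1, which forms an interferon-inducible ring with Psme2, had a level of 3.18 in COS1NR, 3.76 in MFH1NR and 3.44 in MSCs, and Psme2 had 3.94, 4.38 and 3.79 in the same order.

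Several probes were present for 7 of the 37 genes, and their agreement differed between the comparisons. The 8 further probes of these genes gave log2 ratios that differed from those of the brightest probe by 0.24 for COS1NR over MSCs, 0.37 for MFH1NR over MSCs and only 0.04 for MFH1NR over COS1NR (medians of absolute differences). Over 1891 genes with a second probe the medians were 0.28, 0.31 and 0.15. The largest difference was found for Psmd7, a lid subunit, whose 3 probes gave log2 ratios of 0.02, 0.73 and 0.72 in MFH1NR over MSCs and -0.65, -0.46 and -0.64 in MFH1NR over COS1NR. For Psma6 the sign in MFH1NR over MSCs depended on the probe, with -0.08 and 0.41. No gene of the 37 had probes more than 1 apart in any log2 ratio.

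**Figure D3:**
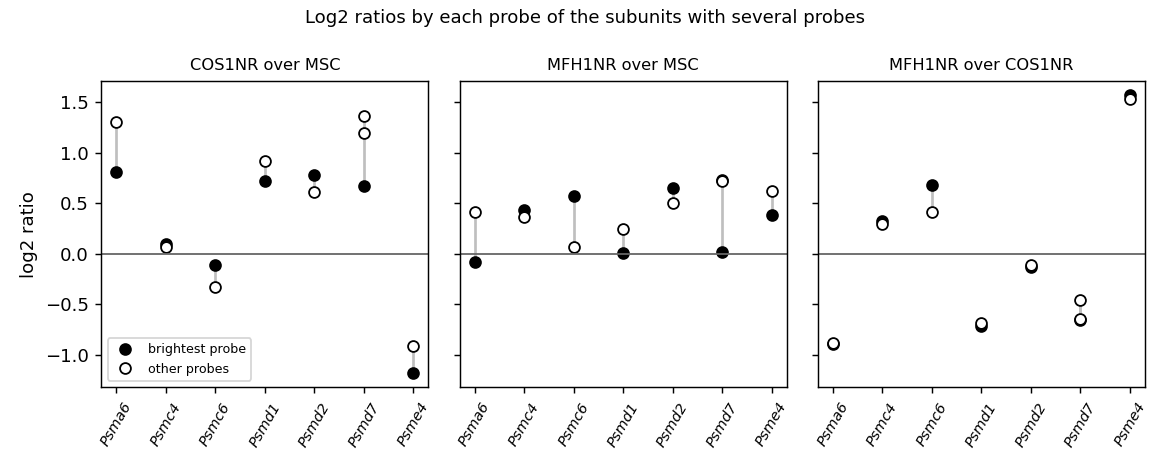
Log2 ratios given by each probe of the 7 proteasome genes with several probes, with the brightest probe filled and the others open, for the 3 comparisons. The probes of a gene lie up to 0.71 apart in MFH1NR over MSCs (Psmd7) and at most 0.27 apart in MFH1NR over COS1NR (Psmc6).

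The 5 genes at least 2-fold apart between the sarcomas are shown here with the 250 bases before their start, so that the promoters of genes with opposite differences can be read side by side. The sequences are those of RefSeq on build GRCr8, 5′ to 3′ on the strand of the gene. Capitals mark matches, on either strand, to CCAAT (bound by NF-Y), GGGCGG (a GC box, bound by Sp1), TGACNNNGC (the core of the antioxidant response element, through which NFE2L1 and NFE2L2 act) and CCGGAAG (Ets factors), and matches that touch or overlap run together.
Psma5, chr2:198584255-198584504, plus strand: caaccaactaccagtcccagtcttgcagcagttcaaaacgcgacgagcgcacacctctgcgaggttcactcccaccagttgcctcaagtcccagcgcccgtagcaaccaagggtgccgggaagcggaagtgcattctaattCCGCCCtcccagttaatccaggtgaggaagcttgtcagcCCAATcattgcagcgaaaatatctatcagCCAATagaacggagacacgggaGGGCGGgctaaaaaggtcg
Psmb4, chr2:185134562-185134811, minus strand: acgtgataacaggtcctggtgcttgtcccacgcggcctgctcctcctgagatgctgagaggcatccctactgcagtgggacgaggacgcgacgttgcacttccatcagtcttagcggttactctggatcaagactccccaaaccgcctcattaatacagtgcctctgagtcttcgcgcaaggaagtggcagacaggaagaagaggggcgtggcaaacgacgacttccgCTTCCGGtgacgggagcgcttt
Psmd4, chr2:185297202-185297451, minus strand: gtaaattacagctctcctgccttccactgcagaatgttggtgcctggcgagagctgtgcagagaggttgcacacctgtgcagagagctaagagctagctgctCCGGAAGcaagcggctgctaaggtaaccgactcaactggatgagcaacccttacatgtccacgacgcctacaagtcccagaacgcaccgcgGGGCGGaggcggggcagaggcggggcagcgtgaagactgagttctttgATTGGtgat
Psmd10, chrX:109453606-109453855, minus strand: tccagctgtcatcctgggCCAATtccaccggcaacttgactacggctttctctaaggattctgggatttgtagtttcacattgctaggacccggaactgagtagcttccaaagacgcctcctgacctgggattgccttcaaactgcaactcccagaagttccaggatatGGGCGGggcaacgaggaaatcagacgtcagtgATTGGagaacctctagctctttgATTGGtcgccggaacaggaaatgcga
Psme4, chr14:108706393-108706642, plus strand: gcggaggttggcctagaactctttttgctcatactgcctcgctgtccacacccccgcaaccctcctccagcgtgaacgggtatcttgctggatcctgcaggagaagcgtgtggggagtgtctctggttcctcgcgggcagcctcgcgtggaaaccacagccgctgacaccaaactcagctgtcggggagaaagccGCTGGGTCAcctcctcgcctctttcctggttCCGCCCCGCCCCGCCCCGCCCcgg
Psme4 held the antioxidant response element core, and none of the 4 genes lower in MFH1NR did. The core was also held by Psma3, Psmb2, Psmb5, Psmb6, Psmd1 and Psmd9. Their log2 ratios of MFH1NR over COS1NR ran from -0.85 for Psma3 to 0.16 for Psmb6. Whether a motif bears on these differences was not tested. Psma5, Psmd4 and Psmd10 held CCAAT, while Psmb4 held only the Ets motif. Of the 37 genes, 33 were matched to a promoter, and the missing ones were Psma7, Psmd6, Psmd12 and Psmd14. GGGCGG was found in 24 of the 33 (72.7%, beside 32.4% of 27457 promoters), CCAAT in 17 (51.5%, beside 34.3%), CCGGAAG in 9 (27.3%, beside 7.74%) and TGACNNNGC in 7 (21.2%, beside 10.2%). The median GC content was 55.6% in the 33 promoters and 52.0% in all. The 27457 promoters are those of all annotated genes with a promoter sequence. They were not limited to the 10010 genes used or to genes as bright as the 33, so the shares have an unlike base.

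The genes next to these 5 proteasome genes on the chromosomes differed between the sarcomas in the same direction as the proteasome gene. For each gene used, the median log2 ratio of the 10 genes used on either side was taken, in the gene order of the GRCr8 assembly, and this comparison was chosen after the values were seen. Over 10008 genes the median of these neighbour medians in MFH1NR over COS1NR was -0.10, and 5% of genes were at or below -0.83. The neighbours of Psma5 had a median of -1.19 with 17 of 20 lower in MFH1NR, those of Psmb4 -1.41 with 19 of 20, those of Psmd4 -1.19 with 19 of 20, and those of Psmd10 on the X chromosome -1.11 with 18 of 20. Neighbour medians as low as these were found for 1.67%, 0.709%, 1.67% and 2.26% of all genes. Psma5, Psmb4 and Psmd4 are the only proteasome genes used on chromosome 2, where the median over 624 genes was -0.61. Psmb4 and Psmd4 are separated by only 2 genes used and share most of their neighbours, so they are not separate instances. Psme4, with 13 neighbours near the end of chromosome 14, had a neighbour median of 1.31 with 1 of 13 lower in MFH1NR, and 99.6% of all genes had a lower or equal one.

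Over all 37 proteasome genes, the log2 ratio of MFH1NR over COS1NR and the neighbour median had a Pearson correlation of 0.89 and a Spearman correlation of 0.81. The correlation was 0.74 over the 32 genes within 2-fold between the sarcomas, and 0.89 over the 33 genes with no other proteasome gene among their neighbours. It was 0.30 over the 7932 genes well above background on each array. The gene and its neighbour median had the same sign in 26 of the 37 and opposite signs in 9, whose own log2 ratios were at most 0.38 in size. This share of 70.3% stood beside 62.1% of 10008 genes. The sign was the same in 24 of 37 in COS1NR over MSCs (64.9%, beside 57.4%) and in 19 of 37 in MFH1NR over MSCs (51.4%, beside 55.6%), where opposite signs were found for ratios of up to 0.99 and 1.12 in size. In COS1NR over MSCs the Pearson correlation over the 37 genes was 0.57 (0.17 over the 7932 genes). In MFH1NR over MSCs it was 0.27 (0.18 over the 7932 genes), and 0.10 over the 32 genes. All points come from the same arrays and genes are not independent replicates. The cause of this relation was not tested.

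**Figure D4:**
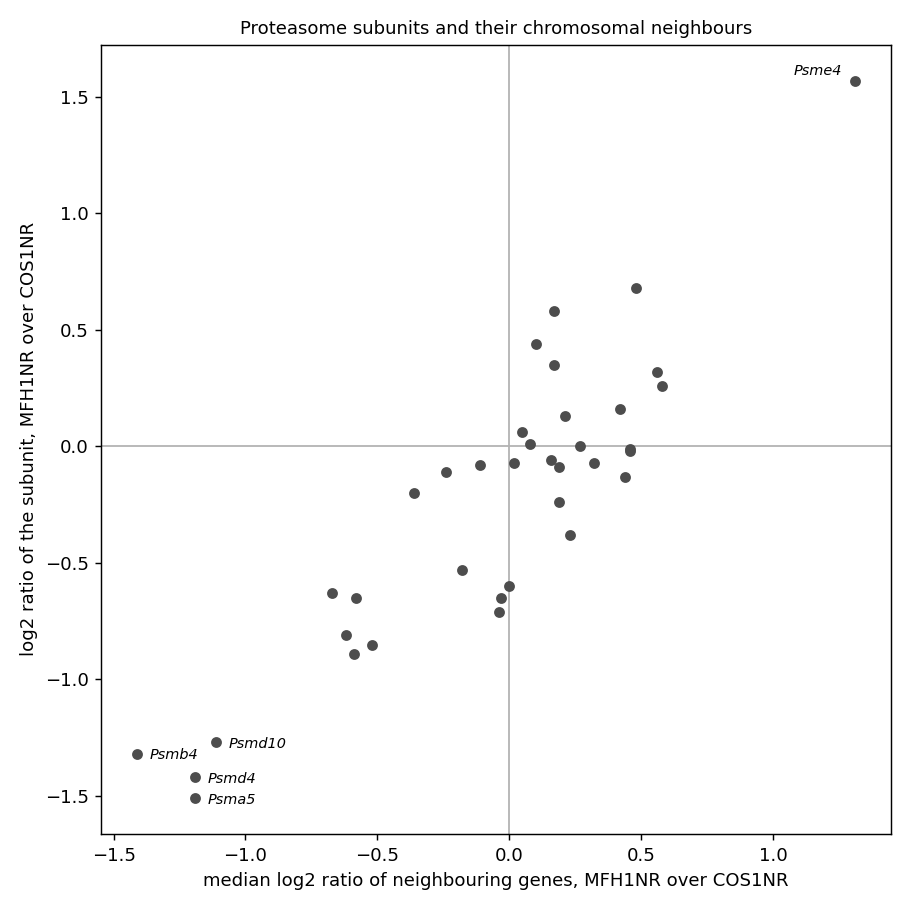
Log2 ratio of MFH1NR over COS1NR of each of the 37 proteasome genes (vertical) against the median log2 ratio of its neighbouring genes on the chromosome (horizontal). The points run from the lower left, where Psma5, Psmb4, Psmd4 and Psmd10 lie below -1 on both axes, to Psme4 at 1.31 and 1.57, with a Pearson correlation of 0.89.

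Of the inducible catalytic subunits, which replace the standard ones in the immunoproteasome, Psmb8 and Psmb9 differed more from MSCs in MFH1NR than their standard counterparts did, while Psmb10 and its counterpart had log2 ratios of 0.06 and 0.01. Psmb8, which takes the place of Psmb5, had a level of 1.78 in COS1NR, 3.85 in MFH1NR and 1.12 in MSCs, 6.65-fold above MSCs in MFH1NR. Psmb9, the counterpart of Psmb6, had a level of 3.35 in COS1NR, 4.23 in MFH1NR and 3.05 in MSCs. Psmb10, the counterpart of Psmb7, had a level of 3.45 in COS1NR, 3.70 in MFH1NR and 3.64 in MSCs. The order of size was thus Psmb8, Psmb9, Psmb10 in MFH1NR over MSCs. The log2 ratio of Psmb8 exceeded that of Psmb5 by 2.99 in MFH1NR over MSCs and by 0.92 in COS1NR over MSCs. For Psmb9 and Psmb6 the differences were 0.89 and 0.17, and for Psmb10 and Psmb7 they were 0.05 and -0.85. These differences are taken within the arrays and do not move with the scaling factor of an array. Of 6 other genes known to respond to interferon gamma, the median log2 ratio was -0.05 in MFH1NR and -0.31 in COS1NR over MSCs, with signs that changed with the scaling. Among them Irf1, a transcription factor of that response, had a level of -0.95 in COS1NR, -0.67 in MFH1NR and 3.56 in MSCs, and Tap2, a peptide transporter, had 2.15, 3.65 and 2.78.

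The factors that assemble the proteasome or bind to it were mostly higher in both sarcomas. The 3 core assembly chaperones with a named probe were all higher in each sarcoma than in MSCs (beside 39.9% of all genes higher in both), with median log2 ratios of 1.10 in COS1NR and 0.43 in MFH1NR, and Psmg1, Psmg3 and Paaf1 were not analysed here. Psmg2 had a level of 2.08 in COS1NR, 2.24 in MFH1NR and 0.98 in MSCs. Pomp, the maturation factor of the core particle, had a level of 6.58 in COS1NR, 6.37 in MFH1NR and 6.03 in MSCs. The 5 other regulatory particle subunits and bound factors had median log2 ratios of 0.43 in COS1NR and 0.47 in MFH1NR over MSCs, and all 5 were higher in both except with spike-in scaling, where 3 were higher in COS1NR. Adrm1, a ubiquitin receptor, had a level of 0.41 in COS1NR, 0.39 in MFH1NR and -0.94 in MSCs, 2.55-fold and 2.51-fold above MSCs. Psmg2 and Adrm1 were thus at least 2-fold above MSCs in both sarcomas (beside 12.2% of all genes), although with spike-in scaling the log2 ratio of Psmg2 in COS1NR was 0.82.

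Of the regulators of proteasome synthesis and location, 4 of 7 had a named probe, and Nfe2l1, the main activator of proteasome genes, had none. Nfe2l2, a transcription factor of the oxidative stress response, had a level of 3.10 in COS1NR, 4.16 in MFH1NR and 4.51 in MSCs. Ngly1, the enzyme that removes sugar chains from the NFE2L1 protein, had a level of -0.59 in COS1NR, 0.82 in MFH1NR and 0.72 in MSCs, and its second probe also gave a lower level in COS1NR, by 1.39 on the log2 scale against MFH1NR. Both genes were thus lowest in COS1NR, under each of the scalings tried. The list's median log2 ratio was -0.62 in COS1NR and -0.01 in MFH1NR over MSCs, and the latter was above 0 in 3 of the 4 other scalings.

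The 14 genes of ubiquitin and of its delivery to the proteasome had median log2 ratios of -0.08 in COS1NR and -0.26 in MFH1NR over MSCs, and both signs changed with the scaling. Nploc4, a cofactor of the segregase Vcp, had a level of -2.61 in COS1NR, -2.16 in MFH1NR and -0.73 in MSCs and was 3.66-fold and 2.68-fold lower than in MSCs, the latter a log2 ratio of -1.42 that became -0.67 without scaling and -0.90 with spike-in scaling. Uba6, a ubiquitin-activating enzyme, had a level of -1.65 in COS1NR, -0.23 in MFH1NR and -1.21 in MSCs, and its second probe gave a log2 ratio of 0.90 in MFH1NR over COS1NR. Ubqln2, a shuttle for ubiquitinated proteins, had a level of -2.12 in COS1NR, -4.20 in MFH1NR and -2.92 in MSCs, and its second probe was not well above background on any array. Of the 14 genes, 7 were higher in COS1NR than in MSCs (beside 53.9% of all genes) and 6 were higher in MFH1NR than in MSCs (beside 50.4%). Without scaling these counts were 10 (beside 65.9%) and 11 (beside 72.0%). With spike-in scaling only Uba1, Ubqln1, Ubqln2 and Ufd1 were higher in COS1NR than in MSCs (beside 44.2%). In MFH1NR, Rad23b and Rps27a then joined the 6 genes above MSCs (beside 66.1%).

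All 6 proliferation genes with a named probe exceeded MSCs by at least 2-fold in each sarcoma (beside 12.2% of all genes above MSCs by as much in both), with median log2 ratios of 2.56 in COS1NR and 2.54 in MFH1NR. Cdk1, the kinase that drives mitosis, had a level of 6.26 in COS1NR, 5.82 in MFH1NR and 3.97 in MSCs. Birc5 had 4.15, 4.38 and 1.46 in the same order, and Ccnb1, the cyclin of Cdk1, had the smallest ratios with 4.11, 3.48 and 2.21. The part of proliferation in the ratios of the proteasome genes was not tested.

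**Figure D5:**
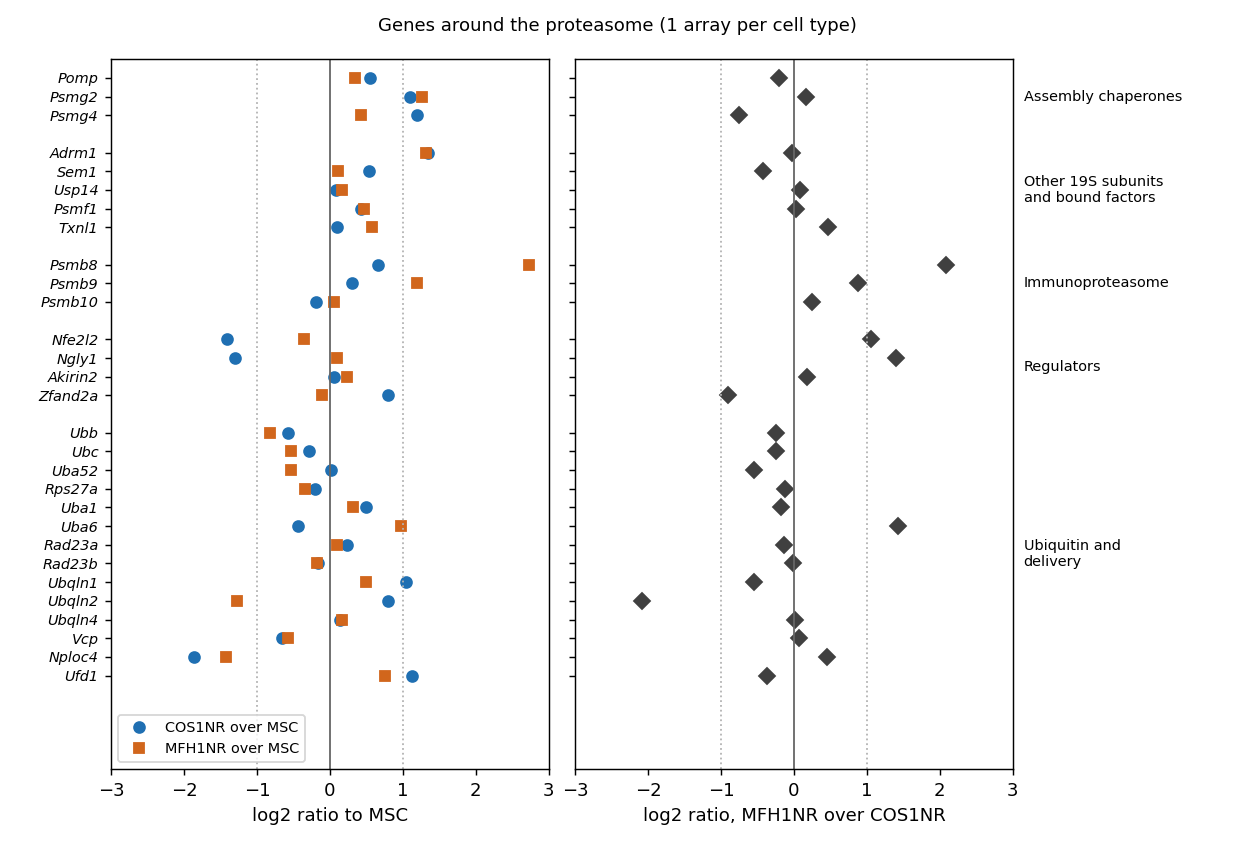
Log2 ratios of the genes around the proteasome, to MSCs on the left (circles COS1NR, squares MFH1NR) and of MFH1NR over COS1NR on the right, with 1 array per cell type and dotted lines at 2-fold. Psmb8 lies farthest to the right in MFH1NR at 2.73, Nploc4 lies left of -1 in both sarcomas, and Ubqln2 has the lowest ratio between the sarcomas at -2.08.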

How the data were processed

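Gene expression in the sarcoma lines COS1NR and MFH1NR and in MSCs was measured on 1 Agilent array each. The authors deposited the processed intensity of each spot, background-subtracted and detrended within the array by Agilent Feature Extraction (10.5.1.1 in the file headers, 9.1 in the labels) without a scaling between arrays. The series table held the same intensities. Control spots and 187 to 217 outlier spots per array were left out, spots of a probe were averaged on the log2 scale, and the 75th percentile of each array was subtracted. Of the 43379 spots that are not controls, 56.6% in COS1NR, 58.2% in MFH1NR and 59.7% in MSCs were well above background. The number of arrays limits the precision.

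Probes were named by unversioned RefSeq accession through a gene table of GRCr8, and the brightest probe stood for a gene. The annotation lists pseudogenes or like loci for 18 of the 37 genes, whose transcripts the probes may also bind. Genes were named in the text if at least 2-fold from MSCs in both sarcomas or at least 2-fold apart between the sarcomas, if catalytic, if dim, if their probes differed by more than 1 in a log2 ratio, or if they had the highest or lowest ratio of a subcomplex. The members and lists were chosen with earlier results of these data known. Alternatives were other scalings, filters, probes, thresholds and a normexp correction (offset 50). The latter was planned on mean signals, which were not used here, and was run on median spot signals after the data were seen. Counting was tested on simulated data. Python 3.11.15, numpy 2.4.6, pandas 2.3.3, scipy 1.17.1, matplotlib 3.10.9, R 4.3.3 and limma 3.58.1 were used.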

Additional observations from a re-analysis of the deposited data

Results flagged for a closer look

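At the 75th percentile scaling, in 5 proteasome genes the sarcomas lay on opposite sides of MSCs and differed from each other by at least 2-fold (13.5% of the 37, beside 13.3% of all genes). The log2 ratio of MFH1NR over COS1NR was -1.51 for Psma5, -1.32 for Psmb4, -1.27 for Psmd10, -1.42 for Psmd4 and 1.57 for Psme4. With 1 array per cell type, these differences were not tested. The opposite sides depend on the scaling for 3 of them: MFH1NR over MSCs became 0.51 for Psma5, 0.58 for Psmb4 and 0.45 for Psmd10 without scaling and 0.27, 0.34 and 0.21 with spike-in scaling. Psmb4 was also above MSCs with median scaling (0.04), as were Psma5 (0.01) and Psmb4 (0.07) with quantile normalization. With spike-in scaling, of the 5 genes Psme4 alone stayed at least 2-fold apart between the sarcomas.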

How the results depend on the processing

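No paired analysis was possible because each group holds 1 array, which also means that no array could be left out. The medians of the proteasome genes for COS1NR over MSCs, MFH1NR over MSCs and MFH1NR over COS1NR, 0.55, 0.24 and -0.09 in log2, became 0.94, 0.99 and 0.27 without scaling and 0.27, 0.76 and 0.71 with scaling to 7 spike-in probes. Median scaling gave 0.71 and 0.46 for the comparisons with MSCs, quantile normalization gave 0.39 for MFH1NR over MSCs and 0.13 for MFH1NR over COS1NR, and means over the genes gave 0.43 for COS1NR over MSCs and -0.24 for MFH1NR over COS1NR. The median of all genes moved with these scalings, by 0.40, 0.76 and 0.36 without scaling, by 0.16, 0.22 and 0.05 with median scaling, by -0.03, 0.05 and 0.10 with quantile normalization and by -0.27, 0.52 and 0.79 with spike-in scaling. Relative to it, the proteasome genes lay at 0.43, 0.23 and 0.03, without scaling, at the median and with spike-in scaling alike, and at 0.44, 0.33 and 0.14 with quantile normalization. The reversed sign between the sarcomas thus follows from the scaling factor of the arrays in 2 of these 3 settings, and with quantile normalization the cause was not tested.

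The number of genes at least 2-fold higher in COS1NR than in MSCs, 3, became 17 without scaling (beside 32.9% of all genes, against 21.7%), 7 with median scaling (25.9%), 5 with the mean of all probes (21.2%), the second brightest probe (21.5%) or normexp (14.3%), 1 with spike-in scaling (15.9%) and 17 at 1.5-fold (33.7%). The number for MFH1NR, 1, became 18 without scaling (41.6% of all genes, against 20.8%), 3 with quantile normalization (22.1%), 11 with spike-in scaling (34.2%) and 7 at 1.5-fold (30.9%). The number at least 2-fold apart between the sarcomas, 5, became 14 at 1.5-fold (49.3% of all genes, against 29.9%) and 7 with spike-in scaling (43.4%), of which only 1 was among the 5, and all 7 were higher in MFH1NR. Without scaling 4 were apart, 3 of them among the 5, and the other settings kept all 5. Of 10 single 2-fold ratios, 7 stayed past 2-fold without scaling, 4 with spike-in scaling, 9 with second probes and all 10 under the other settings. The series table changed nothing.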
